A study of Mus musculus with 8 samples.

Results

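Transcripts of 35 lysosomal genes were examined in retinas of rd10 mice. The genes were listed by name and comprise 9 cathepsins, 8 glycosidases, 7 lipid hydrolases, activators and other soluble proteins, 7 membrane proteins, 3 subunits of the proton pump and the transcription factor gene Tfeb. Each was taken as the row of the deposited gene tables with that gene name. All 35 were among the 54532 genes of the tables, each with 1 row, and all 35 were among the 17725 genes that passed the filter on low counts. The rd10 strain carries a mutation of Pde6b, the gene of a rod phosphodiesterase subunit, and loses rods and then cones. Both groups are rd10. One group is called sIVs, which the series title spells out as small intracellular vesicles (4 libraries, numbered 2 to 5). The other is called PBS, taken to mean phosphate-buffered saline (4 libraries, numbered 1 to 4). The age and sex of the mice, the origin and dose of the vesicles, and how and when they were given are not stated in the sources used here. Libraries are labelled replicate biosamples, and nothing says that each is a separate animal. The p-values therefore measure only how these libraries spread, which may be technical.

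Lysosomes are acidic compartments that break down material delivered by endocytosis, phagocytosis and autophagy. A proton pump in the membrane, the V-ATPase, acidifies the lumen, where cathepsins cleave proteins, glycosidases trim sugars from glycoproteins and glycolipids, and lipases, ceramidases and their activator proteins process lipids. Membrane proteins such as LAMP1 and LAMP2 line the compartment, and channels and transporters move ions, cholesterol and amino acids out of it. TFEB is a transcription factor of the basic helix-loop-helix leucine zipper class that switches on many lysosomal genes together through CACGTG-type motifs near their start sites. In the retina, microglia and the pigment epithelium are rich in lysosomes because they take up debris and shed outer segments.

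Because TFEB is one of the genes examined, the stretches before the start sites were read for this motif in the RefSeq promoter table (build GRCm38.p6, windows of 300 bases, 250 before the start and 50 after). CACGTG reads the same on both strands. Of the 35 genes 30 had a window in the table, and 12 of these 30 (40%) held CACGTG, against 2187 of all 27025 genes in the table (8.09%). The longer TCACGTG, which contains CACGTG and was searched on both strands, was in 10 of the 30 (33.3%) and in 4.29% of all genes. By role, 4 of 7 matched cathepsins, 3 of 8 glycosidases, 3 of 6 membrane protein genes and both matched pump subunits held CACGTG, and 0 of 6 genes of the lipid and other soluble group did. Of 117 further pathway genes, described below, 87 had a window and 20 of these (23%) held CACGTG. By list, 2 of 12 further pump subunits, 3 of 16 membrane protein genes, 6 of 21 hydrolases and 7 of 18 sorting and biogenesis genes did. So did 2 of 14 autophagy genes and 0 of 6 cathepsin inhibitors. A match is a description of letters and not a shown site. The 250 bases before the start are printed for 5 genes, on the strand of the gene from 5′ to 3′, with CACGTG in capitals. Lamp1 and Mcoln1 show repeated copies, Ctsd and Ctsf are cathepsins with a copy, and Ctsc, the cathepsin with the highest fold change described here, has none.
Lamp1, chr8:13158911-13159160, + strand: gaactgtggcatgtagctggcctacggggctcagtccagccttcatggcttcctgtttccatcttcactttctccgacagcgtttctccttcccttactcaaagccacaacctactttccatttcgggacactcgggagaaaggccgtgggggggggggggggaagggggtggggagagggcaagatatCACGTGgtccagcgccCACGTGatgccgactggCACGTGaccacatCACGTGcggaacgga
Mcoln1, chr8:3500269-3500518, + strand: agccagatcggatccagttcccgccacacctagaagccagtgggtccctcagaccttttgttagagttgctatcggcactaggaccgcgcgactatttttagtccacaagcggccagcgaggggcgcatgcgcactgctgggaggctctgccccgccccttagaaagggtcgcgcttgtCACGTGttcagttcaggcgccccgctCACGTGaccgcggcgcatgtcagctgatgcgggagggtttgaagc
Ctsd, chr7:142387828-142388077, − strand: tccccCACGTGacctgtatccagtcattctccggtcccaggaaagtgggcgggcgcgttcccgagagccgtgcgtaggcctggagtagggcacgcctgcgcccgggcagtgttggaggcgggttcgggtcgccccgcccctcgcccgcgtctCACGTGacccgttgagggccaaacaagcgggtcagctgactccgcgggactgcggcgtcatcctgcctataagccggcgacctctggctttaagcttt
Ctsf, chr19:4854915-4855164, + strand: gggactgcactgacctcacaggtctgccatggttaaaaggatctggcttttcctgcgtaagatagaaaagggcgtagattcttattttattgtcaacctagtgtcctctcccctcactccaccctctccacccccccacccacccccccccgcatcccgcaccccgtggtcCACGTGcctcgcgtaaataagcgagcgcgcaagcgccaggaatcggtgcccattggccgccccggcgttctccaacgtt
Ctsc, chr7:88277835-88278084, + strand: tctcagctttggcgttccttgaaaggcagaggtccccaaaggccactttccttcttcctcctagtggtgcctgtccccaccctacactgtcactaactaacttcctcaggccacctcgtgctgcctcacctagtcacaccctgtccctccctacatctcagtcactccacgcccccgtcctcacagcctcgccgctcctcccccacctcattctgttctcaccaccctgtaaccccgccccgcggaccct
Lamp1 held 4 copies in these bases, Mcoln1 2, Ctsd 2, Ctsf 1 and Ctsc 0.

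Library totals ran from 14640235 to 16989737 counts. The sIVs libraries 3 and 4 stood apart from the other 6. Summed over 14 rod markers they held 10029 and 9523 CPM (the CPM of libraries scaled by TMM), against 37792 to 45195 CPM in PBS and 42907 and 34743 CPM in sIVs libraries 2 and 5. All 14 rod markers were detected at 1 CPM or more, as a retina sample should show. Results are therefore given by library and also without sIVs libraries 3 and 4. In bulk RNA, fewer cells of a type and less RNA per cell cannot be told apart.

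The lysosomal genes were not shifted as a block between sIVs and PBS. They stood higher in sIVs libraries 3 and 4 and near PBS in sIVs libraries 2 and 5. Of the 35 genes, 0 passed the edgeR quasi-likelihood test at an adjusted p of 0.05, as did 0 of all 17725 genes (0%). The smallest adjusted p among the 35 was 0.167. Before adjustment, 7 of the 35 were higher at p under 0.05 against 9.61% of all genes, and 1 was lower against 5.63% of all genes. The fold change was positive for 28 of 35, against 49% of all genes tested, and its median on the log2 scale was 0.22, against -0.01 for all genes.

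By library the pattern was uneven. In sIVs library 3, 25 of the 35 genes lay above every PBS library, against 31.8% of all genes, and in sIVs library 4, 26 of 35, against 32.4% of all genes. In sIVs library 2 only 3 lay above every PBS library, against 21.7% of all genes, and 11 lay below every one, against 21.2%. In sIVs library 5, 5 lay above, against 29.8% of all genes, and 11 below, against 29.1%. A single gene, Ctsc, was above every PBS library in all 4 sIVs libraries (4.42% of all genes were), and a single gene, Ctsf, was below every PBS library in all 4 (3.36% of all genes were).

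**Figure D1:**
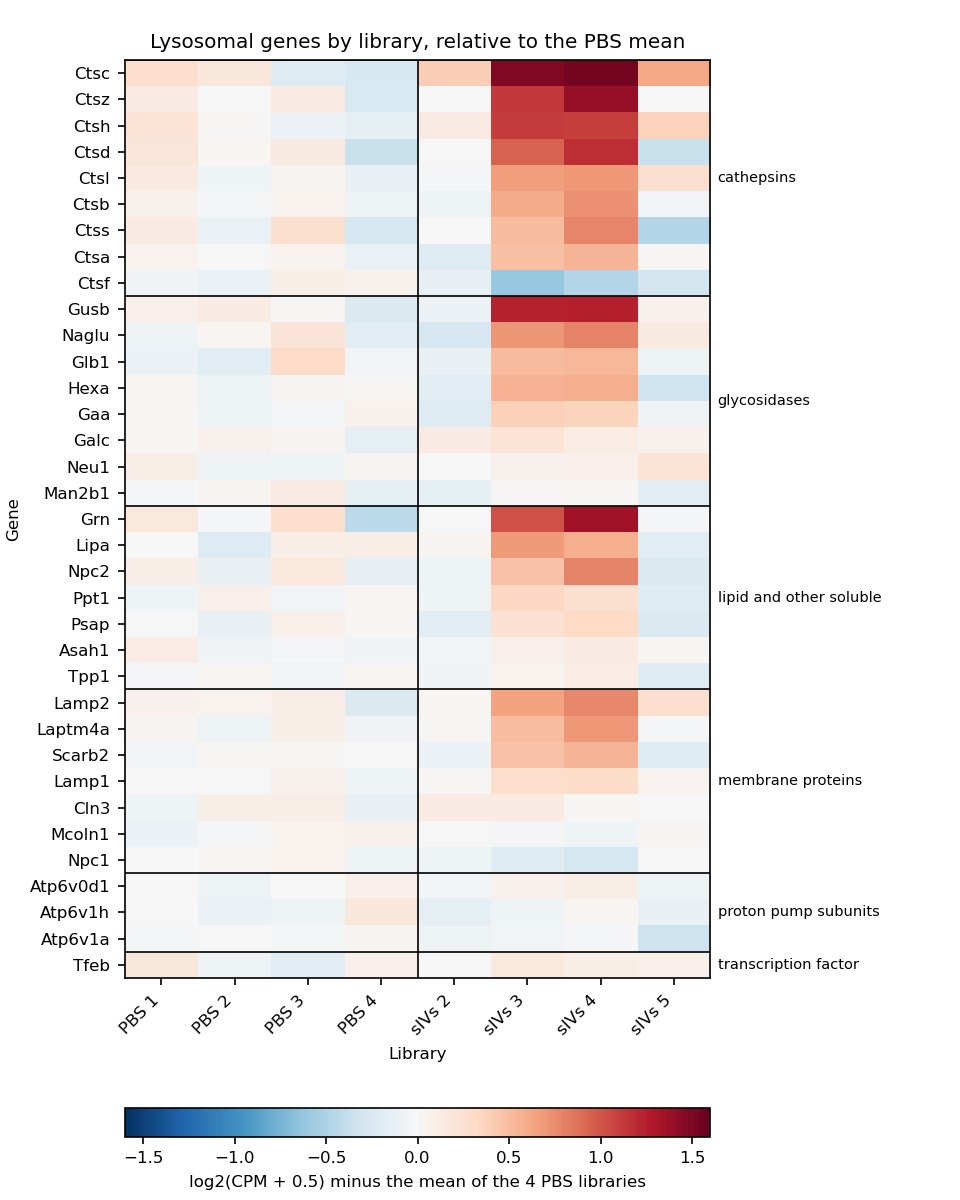
Heat map of the 35 lysosomal genes (rows, grouped by role) in the 8 libraries (columns). Colour gives log2(CPM + 0.5) minus the mean of the 4 PBS libraries for that gene. The columns of sIVs libraries 3 and 4 are red for most genes, with 25 and 26 of 35 above every PBS library, while the pump subunits and Tfeb stay near white and Ctsf is blue.

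Among the cathepsins, 8 of 9 had a positive log2 fold change and 0 of 9 passed the test. Ctsc encodes dipeptidyl peptidase I (cathepsin C), which trims and activates the granule proteases of immune cells (ENSMUSG00000030560, chromosome 7, 88278085 to 88310888, GRCm38). Its transcript stood at 42.9, 39.9, 30.5 and 29.3 CPM in PBS libraries 1 to 4 and at 46.3, 99.3, 103 and 54.2 CPM in sIVs libraries 2 to 5. All 4 sIVs libraries lay above all 4 PBS libraries, with library 2 only a little above PBS library 1. The log2 fold change was 1.08 with SE 0.26 (n = 4 each, edgeR adjusted p = 0.167), a 2.12-fold difference. Ctsh, an aminopeptidase, stood at 32.6 to 41.9 CPM in PBS against 39.6, 79.2, 78 and 46.7 CPM in sIVs libraries 2 to 5. Library 2 was within the PBS range and the other 3 above it (log2 fold change 0.75 with SE 0.22 and edgeR adjusted p = 0.193).

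Ctsf was the only one of the 9 listed cathepsins with a negative fold change. It encodes cathepsin F, a papain-type cysteine protease (ENSMUSG00000083282, chromosome 19, 4855129 to 4860912, as the files give it). Its level was 159, 155, 178 and 174 CPM in PBS libraries 1 to 4 and 151, 109, 119.9 and 136 CPM in sIVs libraries 2 to 5. The groups did not overlap, although sIVs library 2 was only just below PBS library 2. The log2 fold change was -0.37 with SE 0.10 (n = 4 each, edgeR adjusted p = 0.188).

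Ctsb, Ctsd and Ctsl overlapped PBS in sIVs library 2, and Ctsb and Ctsd also in library 5. Ctsb, a broad cysteine protease, stood at 565, 528, 561 and 510.4 CPM in PBS against 512, 819.7, 901 and 525 CPM in sIVs (log2 fold change 0.35 with SE 0.18 and edgeR adjusted p = 0.393). Ctsd, the main aspartic protease of lysosomes, stood at 335, 299, 325 and 229 CPM in PBS against 291, 563, 668 and 230.2 CPM in sIVs (log2 fold change 0.56 with SE 0.31 and edgeR adjusted p = 0.417). In Ctsb and Ctsd only sIVs libraries 3 and 4 were above the PBS range. Ctsl, an endopeptidase, stood at 193, 165, 178 and 159.7 CPM in PBS against 169.7, 277, 282 and 207 CPM in sIVs (log2 fold change 0.43 with SE 0.16 and edgeR adjusted p = 0.261). Here sIVs library 5 was also above the PBS range.

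Ctss, a protease of antigen-presenting cells and microglia, had values of 56.6, 47.9, 61.9 and 42.5 CPM in PBS and 51.6, 73.9, 89.1 and 37.3 CPM in sIVs. Libraries 3 and 4 were above the PBS range, library 2 inside it and library 5 below it (log2 fold change 0.27 with SE 0.24 and edgeR adjusted p = 0.623). Ctsz, a carboxypeptidase, reached 110.3 and 132 CPM in sIVs libraries 3 and 4, against 42 to 54.9 CPM in PBS and 49.7 and 50.1 CPM in sIVs libraries 2 and 5. It overlaps Nelfcd on the opposite strand, whose mean count was 96.4% of its own. Whether counting used the strand is not stated in the sources used here, so reads of the pair may not be separated. Ctsa, a carboxypeptidase that also shields the neuraminidase and galactosidase, had a log2 fold change of 0.24 with SE 0.15 (edgeR adjusted p = 0.479), with sIVs library 2 below the PBS range and libraries 3 and 4 above it.

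**Figure D2:**
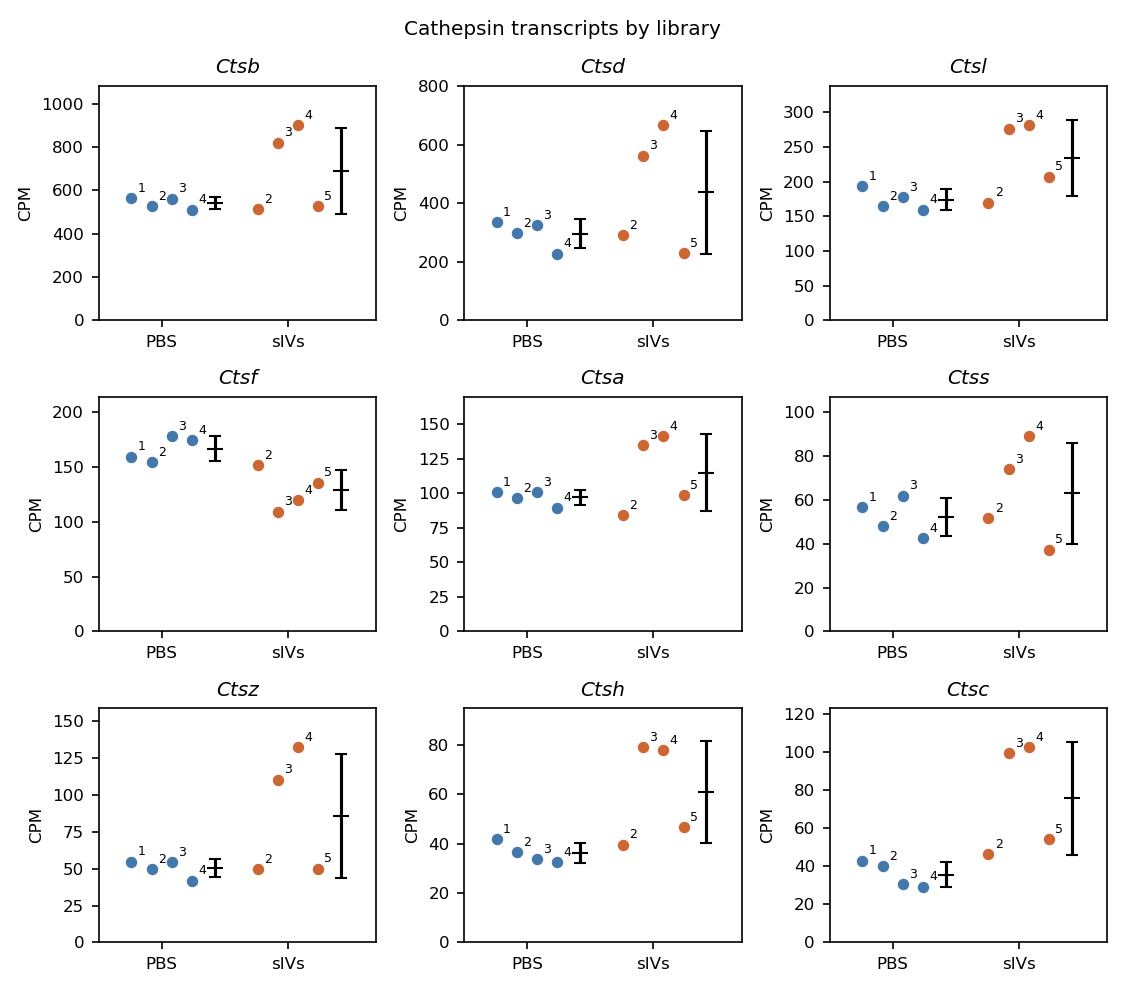
CPM of the 9 cathepsins in each library, 1 panel a gene, numbered by library, with PBS in blue and sIVs in orange and the mean ± SD (n = 4) as a black bar beside each group. In 8 panels sIVs libraries 3 and 4 are the highest points, and in the Ctsf panel they are the lowest, at 109 and 119.9 CPM.

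Of the glycosidase genes 7 of 8 had a positive fold change (median 0.18 on the log2 scale) and 0 passed the test. Gusb, the beta-glucuronidase gene, stood at 18, 18.7, 17.4 and 14.5 CPM in PBS against 16, 40.8, 41 and 18 CPM in sIVs. Libraries 3 and 4 were far above PBS and libraries 2 and 5 inside the PBS range (log2 fold change 0.76 with SE 0.30 and edgeR adjusted p = 0.289). Naglu and Hexa, hexosaminidase genes of heparan sulfate and ganglioside breakdown, showed the same split at smaller size. Naglu was at 32.3 and 34.3 CPM and Hexa at 75.1 and 76.7 CPM in libraries 3 and 4, against at most 22.6 and 52.8 CPM in PBS. Hexa was below the PBS range in libraries 2 and 5, at 44.9 and 40.9 CPM. Gaa, the acid alpha-glucosidase gene of glycogen breakdown, and Glb1, the beta-galactosidase gene, had log2 fold changes of 0.14 and 0.25. Glb1 shares its locus with Tmppe on the same strand, which had 47.8% of its mean count.

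The other 3 glycosidase genes had small fold changes. Galc, which encodes the enzyme that removes galactose from ceramide, stood at 28.6, 29.6, 29.1 and 25.5 CPM in PBS against 30.9, 32.8, 30.5 and 29.5 CPM in sIVs (log2 fold change 0.13 with SE 0.08 and edgeR adjusted p = 0.449). Its sIVs libraries 2, 3 and 4 were above every PBS library and library 5 was inside the PBS range. Neu1, the sialidase gene, lay between 54.5 and 66.5 CPM over all 8 libraries, with sIVs library 5 alone above the PBS range. Man2b1, the acid alpha-mannosidase gene, was the only glycosidase gene with a negative fold change. It stood at 57.7, 60.6, 64.6 and 53.4 CPM in PBS against 53, 60, 59.5 and 51.9 CPM in sIVs (log2 fold change -0.07 with SE 0.08 and edgeR adjusted p = 0.697). Scaling by library totals alone turned it to 0.0039.

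In the lipid and other soluble group the median log2 fold change was 0.10, with 6 of 7 positive and 0 passing the test. Grn encodes progranulin, a secreted and lysosomal glycoprotein made by microglia and neurons. It stood at 73.8, 64.9, 79.8 and 49.3 CPM in PBS against 66.2, 134, 168 and 65.3 CPM in sIVs. Only libraries 3 and 4 left the PBS range (log2 fold change 0.70 with SE 0.30 and edgeR adjusted p = 0.318). Npc2, which hands cholesterol to NPC1, was at 92.3 and 116 CPM in these libraries, and Lipa, the acid lipase gene, at 39.3 and 36.6 CPM, against highest PBS values of 74.9 and 26.2 CPM.

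Psap, whose product is cut into the saposins that present lipids to their hydrolases, had the highest FPKM of the 35 genes. Its count level was 756 to 869 CPM in PBS and 729, 970.4, 1020.4 and 700.5 CPM in sIVs libraries 2 to 5. Libraries 3 and 4 were above the PBS range and libraries 2 and 5 below it, so that the log2 fold change was 0.06 with SE 0.13 (edgeR adjusted p = 0.867). Tpp1, the tripeptidyl peptidase gene, stood at 173, 179, 169.8 and 178 CPM in PBS against 168, 182, 189 and 152 CPM in sIVs (log2 fold change -0.02 with SE 0.08 and edgeR adjusted p = 0.939). Asah1, the acid ceramidase gene, and Ppt1, the gene of a thioesterase that removes palmitate from proteins, had log2 fold changes of 0.05 and 0.10. Ppt1 overlaps Cap1 on the opposite strand, which had 148% of its mean count.

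Membrane protein genes were divided. Lamp2, whose product lines the lysosome and serves chaperone-mediated autophagy, stood at 135, 133, 139 and 109 CPM in PBS against 132, 200.3, 220.2 and 155 CPM in sIVs. Libraries 3, 4 and 5 were above the PBS range (log2 fold change 0.45 with SE 0.16 and edgeR adjusted p = 0.242). Lamp1, the companion glycoprotein gene, had a smaller fold change. Its values were 189, 189.5, 199 and 179 CPM in PBS and 191, 229, 232 and 197 CPM in sIVs (log2 fold change 0.17 with SE 0.08 and edgeR adjusted p = 0.375), and it overlaps Grtp1 on the opposite strand (40.8% of its mean count).

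Laptm4a, a small transmembrane protein gene, and Scarb2, which encodes the receptor that carries glucocerebrosidase to lysosomes, were above the PBS range in libraries 3 and 4 only. Laptm4a reached 264 and 304 CPM there and Scarb2 286 and 301 CPM, against highest PBS values of 201 and 209.7 CPM. In contrast Npc1, the cholesterol exporter gene, was lowest in those libraries. It stood at 104, 107, 109 and 99.1 CPM in PBS against 99.5, 90.3, 85.8 and 104 CPM in sIVs (log2 fold change -0.14 with SE 0.08 and edgeR adjusted p = 0.402), with Rmc1 overlapping on the opposite strand (44.8% of its mean count). Cln3, a membrane protein gene mutated in Batten disease, stayed between 28.1 and 33.4 CPM, and Mcoln1, the calcium channel TRPML1 gene, between 68.6 and 77.4 CPM over all 8 libraries.

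Proton pump subunits and Tfeb stood near PBS. Atp6v0d1, a subunit of the membrane sector, stood at 159, 152, 160.5 and 169 CPM in PBS against 155, 168, 173 and 152 CPM in sIVs (log2 fold change 0.02 with SE 0.07 and edgeR adjusted p = 0.929). Atp6v1a, the catalytic subunit, stood at 436, 444, 431 and 455 CPM in PBS against 418, 428, 435 and 350.4 CPM in sIVs (log2 fold change -0.11 with SE 0.09 and edgeR adjusted p = 0.559). Its sIVs libraries 2, 3 and 5 were below every PBS library, with library 5 lowest, and library 4 was inside the PBS range. Atp6v1h, a regulatory subunit, had a log2 fold change of -0.08 with SE 0.08 (edgeR adjusted p = 0.653), with Rgs20 overlapping on the opposite strand (45.5% of its mean count). Tfeb stood at 12.6, 10.3, 9.65 and 11.6 CPM in PBS against 10.9, 12.4, 11.7 and 11.6 CPM in sIVs, inside the PBS range in all 4 sIVs libraries (log2 fold change 0.08 with SE 0.12 and edgeR adjusted p = 0.772). These values measure Tfeb transcript only, not the protein or where it sits in the cell.

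Set side by side, the cathepsins had a median log2 fold change of 0.43 and the 26 other lysosomal genes one of 0.11, against -0.01 for all genes tested. Each gene was then expressed in each library as log2 CPM minus its PBS mean. The cathepsin median was -0.01, 0.67, 0.78 and 0.0040 in sIVs libraries 2 to 5, and that of the other 26 genes was -0.06, 0.26, 0.28 and -0.04. The gap between both medians was 0.05, 0.41, 0.50 and 0.05 there, against -0.12 to 0.14 among the PBS libraries, so the wider gap lay in libraries 3 and 4 alone. Of the FPKM summed over the 35 genes, cathepsins made up 29.2% to 33% in PBS and 32.1%, 36.8%, 38.6% and 31.1% in sIVs libraries 2 to 5. The 12 genes with CACGTG in the promoter window had a median log2 fold change of 0.15 and the 18 without it 0.25, ranging from -0.37 to 0.56 and from -0.07 to 1.08. The 5 genes with no window in the promoter table had a median of 0.05, ranging from -0.14 to 0.75. Any link between the motif and the fold changes was not tested.

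**Figure D3:**
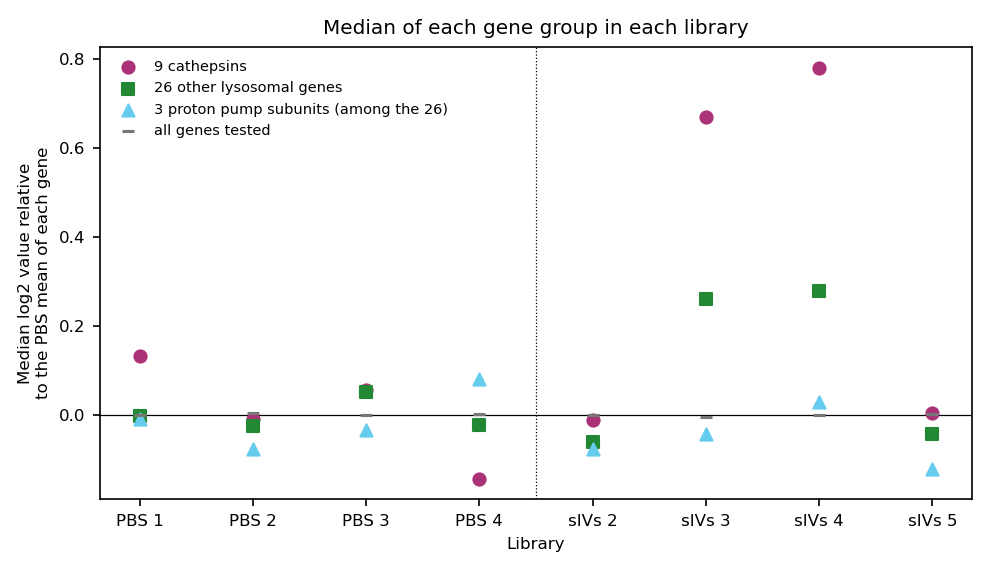
Median of log2 CPM relative to the PBS mean of each gene, by library, for the 9 cathepsins, the 26 other lysosomal genes, the 3 pump subunits among these and all 17725 genes tested. Cathepsins stand at 0.67 and 0.78 in sIVs libraries 3 and 4 and the other lysosomal genes at 0.26 and 0.28, while both lie between -0.14 and 0.13 in the other libraries.

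Without sIVs libraries 3 and 4 most fold changes were negative and the cathepsins no longer stood above the other lysosomal genes. These libraries were left out after seeing the data and are those where the gap lay, so its loss follows from leaving them out. This fit sets sIVs libraries 2 and 5 against the 4 PBS libraries. The fold change was then positive for 10 of 35 genes, against 49.8% of all 18261 genes tested, and the median log2 fold change was -0.06. The cathepsin median was -0.06 and that of the other 26 genes -0.06, a gap of -0.00488. Ctsc kept the highest log2 fold change, 0.49 with SE 0.15 (edgeR adjusted p = 0.227), followed by Ctsh at 0.25 with SE 0.12 (edgeR adjusted p = 0.365). Ctsf stayed negative at -0.22 with SE 0.08 (edgeR adjusted p = 0.285). Ctsd, Ctss and Hexa turned from positive to -0.19, -0.24 and -0.25, and all 7 genes of the lipid and other soluble group were negative. At an adjusted p of 0.05, 0 of the 35 genes and 3 of all genes (0.0164%) passed. At an unadjusted p under 0.05, 1 of the 35 was higher, against 6.73% of all genes, and 5 were lower, against 7.01%.

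**Figure D4:**
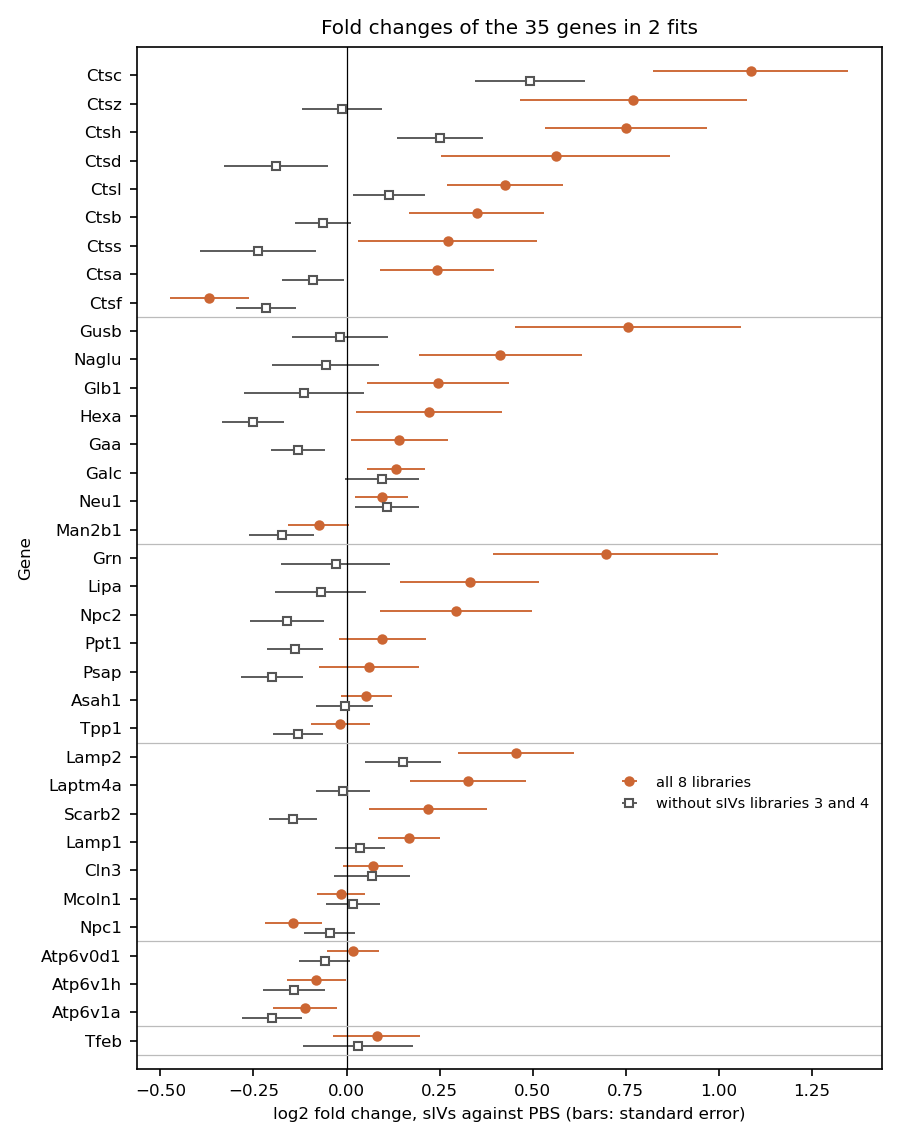
Log2 fold change of each of the 35 genes, sIVs against PBS, with its standard error, from all 8 libraries (filled circles) and without sIVs libraries 3 and 4 (open squares). Most open squares lie near or left of 0, Ctsc stays right of it at 0.49, and Ctsf stays left of it at -0.22. Libraries 3 and 4 were left out after seeing the data.

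Other treatments of the spread moved the number of genes called. Without sIVs library 2, edgeR called Ctsc, Ctsh, Ctsl and Lamp2 as higher (adjusted p = 0.0151, 0.0206, 0.029 and 0.0337) and Ctsf as lower (adjusted p = 0.0244), 5 of 35 beside 7.39% of all genes (4.83% higher and 2.56% lower). DESeq2 on all 8 libraries called Ctsc and Ctsh (adjusted p = 0.0048 and 0.0352), 2 of 35, both higher, beside 3.49% of all genes (2.84% higher). With no filter on low counts edgeR called Ctsc alone of the 35 (adjusted p = 0.0441) beside 0.45% of all genes. With sample quality weights in limma-voom, which gave libraries unequal weight, 21 of 35 passed beside 28.1% of all genes, 19 of them higher (14% of all genes). The weights also moved the fold changes. The median log2 fold change was 0.40 without and 0.57 with weights for the cathepsins, and 0.11 and 0.21 for the other lysosomal genes. Which libraries weighed most was not examined.

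Of 117 further genes of the lysosomal pathway, 109 were tested and 0 passed at an adjusted p of 0.05. Before adjustment 15 of 109 were higher at p under 0.05, against 9.61% of all genes, and 5 of 109 lower, against 5.63%. The fold change was positive for 68 of 109 (62.4%), against 49% of all genes, and the median log2 fold change was 0.06. Of 29 further hydrolases tested 24 had a positive fold change (median 0.14), as had 15 of 20 further membrane protein genes (median 0.21). Further pump subunits were split, 7 of 16 positive with a median of -0.03, and so were sorting and biogenesis genes, 9 of 20 with a median of -0.01, and autophagy genes, 8 of 18 with a median of -0.02.

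The genes named next had the smallest unadjusted p of their list in 1 direction. In all 5 of them sIVs library 5 lay outside the PBS range together with libraries 3 and 4. Cd63, a tetraspanin of late endosomes, stood at 92.8 to 123 CPM in PBS against 123, 268, 298 and 216 CPM in sIVs libraries 2 to 5 (log2 fold change 1.11 with SE 0.23 and edgeR adjusted p = 0.158). Tcirg1, the a3 subunit of the proton pump known from osteoclasts and macrophages, was at 12.2 to 13.6 CPM in PBS against 12.6, 34.6, 43.9 and 16.6 CPM in sIVs (log2 fold change 1.04 with SE 0.34 and edgeR adjusted p = 0.228), unlike the 3 pump subunits above. Laptm4b, a relative of Laptm4a, was at 399.8 to 463 CPM in PBS against 415, 236, 243 and 367 CPM in sIVs (log2 fold change -0.41 with SE 0.18 and edgeR adjusted p = 0.314). Fuca1, the fucosidase gene, and Sqstm1, which encodes the autophagy receptor p62, had log2 fold changes of 0.43 and 0.34 and were above PBS in libraries 3, 4 and 5. Without sIVs libraries 3 and 4, the log2 fold changes of all 5 genes were smaller in size. They were 0.69 for Cd63, 0.16 for Tcirg1, -0.10 for Laptm4b, 0.15 for Fuca1 and 0.07 for Sqstm1.

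Of the 109 pathway genes 5 lay above every PBS library in all 4 sIVs libraries, against 4.42% of all genes, and 3 lay below, against 3.36%, shares near those of all genes. Among these Sort1, which encodes the sorting receptor sortilin, was at 193 to 216 CPM in PBS against 182, 179.9, 182 and 173 CPM in sIVs (log2 fold change -0.21 with SE 0.06 and edgeR adjusted p = 0.21). Rragc, a Rag GTPase gene of the mTORC1 branch at the lysosome, was at 62.9 to 64.5 CPM in PBS against 67.5, 69, 72 and 81.4 CPM in sIVs (log2 fold change 0.19 with SE 0.07 and edgeR adjusted p = 0.272). Ctsk, cathepsin K, was low and stood below every PBS library in all 4 sIVs libraries (means 3.3 and 2.17 CPM, log2 fold change -0.60 with SE 0.21 and edgeR adjusted p = 0.249). Gabarapl2, an autophagosome gene, was also below every PBS library in all 4 (log2 fold change -0.14), and Atp6v1e1, a pump subunit gene, in 3 (log2 fold change -0.10).

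Of 6 tested genes listed as cathepsin inhibitors, 5 had a positive fold change (median 0.61) and 0 passed the test. Which of the cathepsins above their products act on was not tested. Serpinb6a, an intracellular serpin gene, stood at 12.3, 12.2, 15.6 and 9.68 CPM in PBS against 16.3, 25.5, 25.4 and 17.8 CPM in sIVs. All 4 sIVs libraries were above all PBS libraries (log2 fold change 0.77 with SE 0.19 and edgeR adjusted p = 0.168). Cst3, the secreted cysteine protease inhibitor cystatin C, was at 521 to 628 CPM in PBS against 570.1, 337, 385 and 553 CPM in sIVs (log2 fold change -0.31 with SE 0.17 and edgeR adjusted p = 0.414). Libraries 3 and 4, where most cathepsins were highest, held the lowest Cst3.

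Some cell type markers differed in sIVs libraries 3 and 4 and others in further libraries. Over 20 microglia and macrophage markers, none at 0 and 18 with a positive fold change, the summed level was 178 to 305 CPM in PBS and 237, 552, 645 and 192 CPM in sIVs libraries 2 to 5. Of the 20, 2 lay above every PBS library in all 4 sIVs libraries (4.42% of all genes did) and 2 lay below (3.36% of all genes did). The lowest log2 fold change among the 20 was -1.22. Over 13 vessel markers it was 545 to 628 CPM in PBS and 537, 895, 905 and 501 CPM in sIVs. Over 13 Müller glia markers it was 6062 to 7356 CPM in PBS and 5519, 7140.3, 7619 and 4358 CPM in sIVs, so the sum of library 3 was inside the PBS range and those of libraries 2 and 5 below it. Gene by gene, the median log2 value relative to the PBS mean was -0.23, 0.62, 0.73 and -0.54 in sIVs libraries 2 to 5. In libraries 3 and 4, 10 and 11 of the 13 markers were above their PBS mean. The rod markers were lowest in libraries 3 and 4, as given above. Over 10 cone markers the sum was 2064 to 2570.2 CPM in PBS and 1925, 1409.9, 1429 and 1755 CPM in sIVs, below every PBS library in all 4. Of the 10 genes, 6 were lower at an unadjusted p under 0.05 in edgeR, against 5.63% of all genes, and 2 had a positive fold change. At the same cut 1 of the 14 rod markers was lower, with all 14 fold changes negative. Pigment epithelium markers, 12 of 14 at 1 CPM or more, summed to 324 to 582 CPM in PBS and 432, 299, 351 and 309 CPM in sIVs. Their median log2 value relative to the PBS mean was 0.30, -0.17, 0.13 and -0.49 in sIVs libraries 2 to 5. Among the PBS libraries it ran from -0.66 to 1.06. In sIVs libraries 3 and 4, 5 and 9 of the 14 markers were above their PBS mean. Of 14 neutrophil and T cell markers 1 reached 1 CPM on average and Elane was at 0, with a sum of 2.25 to 3.78 CPM in PBS and 2.88, 6.34, 5.36 and 5.61 CPM in sIVs, above the PBS range in libraries 3, 4 and 5. Lens markers, 1 of 11 at 1 CPM or more, summed to 43 to 58.6 CPM in PBS and 49, 128, 138 and 61 CPM in sIVs. Red blood cell markers, 5 of 6 at 1 CPM or more, summed to 38.3 to 54.4 CPM in PBS and 41.4, 27, 23.4 and 48.1 CPM in sIVs. The part of these markers in the lysosomal values was not tested.

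Levels per length, in the authors' FPKM, spanned a wide range in PBS. Psap was highest at 298 ± 17.2 FPKM (SD, n = 4), followed by Ctsd at 125.9 ± 20.7 and Laptm4a at 106 ± 6.52. Ctsd and Laptm4a overlapped within their spread, as did Ctsb at 89.1 ± 4.58, Atp6v0d1 at 88.9 ± 3.8 and Ctsf at 84.1 ± 5.66 FPKM. Lamp1 at 70.4 ± 3.11 exceeded Lamp2 at 13.5 ± 1.46 FPKM. At the low end, Tfeb at 1.94 ± 0.227 and Galc at 1.89 ± 0.128 FPKM overlapped. Ctsc, the cathepsin of highest fold change, stood at 6.12 ± 1.17 FPKM in PBS and 12.98 ± 5.04 FPKM in sIVs. Ctsh stood at 8.02 ± 0.934 and 13.5 ± 4.55 FPKM, and both cathepsins overlapped within their spread at the low end of the 9.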

How the data were processed

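Retinal RNA of rd10 mice was extracted with TRIzol, poly(A)-selected and made into dUTP strand-marked libraries for paired-end Illumina sequencing, per the labels' protocols. The genome build was mm10, per the submitters' processing notes. No aligner, counting tool, annotation release or strand setting is named in the sources used here. The deposited tables hold raw counts per gene and FPKM calculated by the authors. From the counts, edgeR 4.0.16 (R 4.3.3) kept 17725 of 54532 genes by filterByExpr, scaled libraries by TMM and fitted the quasi-likelihood test of 4 sIVs against 4 PBS libraries, with Benjamini-Hochberg adjustment over all genes and a threshold of 0.05. CPM are those of the TMM-scaled libraries. DESeq2 1.42.0 and limma 3.58.1 were alternatives. With data simulated on 17725 genes, edgeR recovered 34.3% of genes changed 1.5-fold, 68.7% changed 2-fold and 100% changed 4-fold. The simulated libraries were independent, each gene had the same spread in both groups, and only genes above 1 CPM were changed. In the real data the groups differed in spread and sIVs libraries 3 and 4 stood apart together. The simulated rates therefore cannot say which fold changes were detectable here. Depth was 14640235 to 16989737 counts, and no libraries agreed within counting noise. The coefficient of variation between libraries beyond counting noise, as edgeR estimates it, was 8.83% in PBS and 22.3% in sIVs, and the fit shares 1 estimate of the spread. Of the genes, those given in full are Ctsd, Ctsb, Ctss, Ctsl, Lamp1, Lamp2 and Tfeb and, in each role, the gene of smallest unadjusted p in each direction. The others are given by level, fold change or range. The same smallest-p rule chose the further pathway genes, among those with at least 1 CPM. The genes and lists were chosen with earlier results of these data known. Motif letters were read from RefSeq promoters. Coordinates of 33 of the 35 genes in the deposited tables equal those of GENCODE M21.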

Additional observations from a re-analysis of the deposited data

How the results depend on the processing

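The alternatives were scaling, filters, DESeq2, limma on counts and FPKM, other thresholds, each library left out in turn and the replicate block. At an adjusted p of 0.05 edgeR called 0 of 17725 genes, with 2702 at an unadjusted p under 0.05. With no filter 145 genes were called higher and 7 lower (0.45% of all genes), among them 1 of the 35 lysosomal genes and 1 further pathway gene. DESeq2 called 465 higher (2.84% of all genes) and 106 lower, with 2 of the 35 and 2 pathway genes, all higher. Quality weights in limma-voom called 2484 higher and 2489 lower, 14% of all genes in each direction. Among these were 19 of the 35 higher and 2 lower, and of 109 pathway genes 30 higher and 10 lower. An adjusted p of 0.1 gave 10 higher and 1 lower. With each library left out in turn the calls ranged from 0 to 870 higher and 0 to 461 lower genes, 0 to 4 higher and 0 to 1 lower of the 35, and 0 to 6 higher pathway genes. All of these calls came without sIVs library 2, where 4.83% of all genes were called higher and 2.56% lower, and the cause was not tested. The gap between the cathepsin and other lysosomal medians, 0.31, ranged from 0.20 to 0.41 over these fits. Leaving out sIVs libraries 3 and 4 together, chosen after seeing the data, gave 2 higher and 1 lower gene and a gap of -0.00488. It reversed Ctsa (-0.0896), Ctsb (-0.0623), Ctsd (-0.19), Ctss (-0.24), Ctsz (-0.0129), Hexa (-0.25), Gaa (-0.13), Glb1 (-0.11), Gusb (-0.0170), Naglu (-0.0558), Lipa (-0.0691), Asah1 (-0.00474), Ppt1 (-0.14), Psap (-0.20), Grn (-0.0288), Npc2 (-0.16), Scarb2 (-0.14), Laptm4a (-0.00886), Mcoln1 (0.0172) and Atp6v0d1 (-0.0591). Library totals as scaling put the median of all genes at 0.0709 and reversed Man2b1 (0.00390), Tpp1 (0.0632) and Mcoln1 (0.0588). Quality weights reversed Tpp1 (0.0616). With each library left out in turn, Tpp1 ranged from -0.0644 to 0.0386, Psap from -0.0373 to 0.143, Mcoln1 from -0.0489 to 0.00786 and Atp6v0d1 from -0.0150 to 0.0450, and these 4 genes changed sign. Same-numbered libraries did not deviate together (correlations of -0.0028, 0.06 and -0.06 by title number, -0.07 to 0.11 by description number). The replicate block called 0 genes under either numbering and turned Tpp1 to 0.0328 by title numbers. Of the alternative values, 909 kept direction and side of the threshold, among them 1 unchanged rank of cathepsin FPKM levels. For fold changes of the genes named, 45 came to pass the threshold and 34, of 22 genes, changed sign.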
